A study of Mus musculus with 6 samples.

Results

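Gene expression of secondary neurospheres was compared with that of primary neurospheres, using all 6 of the 6 arrays of the study. Neurospheres are floating clusters grown from dissociated brain tissue, and secondary spheres are in general those that form again after primary spheres are taken apart. The cells came from the subventricular zone of mice aged 18 months, were cultured with EGF and FGF and were collected at 14 days in vitro. The primary group held 1 wt and 2 Wip1-Tg arrays and the secondary group held 2 wt and 1 Wip1-Tg array, with no treatment in any group. Wip1-Tg stands for a Wip1 transgene, Wip1 being a phosphatase that turns off p53 and stress kinase signalling. The promoter of the transgene, the number of animals behind an array and the parent spheres of the secondary ones are not stated in the labels. Nor do the labels tie replicates to separate animals or cultures, and the p-values therefore cover only the spread among these 6 samples, which may be technical. The comparison ran over 12755 features above background on at least 3 arrays, of which 10167 were named genes, and genotype was a covariate.

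The subventricular zone is a germinal layer in which astrocyte-like stem cells give rise to transit-amplifying progenitors, neuroblasts and some oligodendrocytes. EGF and FGF keep such cells dividing as spheres in which stem cells, progenitors and more differentiated glia and neurons lie together. Astrocytes that respond to injury or inflammation are called reactive and are known for Gfap, matrix genes and targets of NF-kB and interferon.

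Several defining markers of neural progenitors and glia were present on every array of either passage, while the probes of the progenitor gene Msi1, the myelin gene Mog and the neuronal gene Snap25 were above background on none. Other markers of myelin and neurons did give signal. The myelin gene Mbp and the neuronal genes Rbfox3 and Gad1 were above background on at least 3 arrays, and the neuronal gene Tubb3 on 1. Nes, an intermediate filament protein of progenitors, lay between 10.18 and 11.70 (normalised log2 intensity), and the stem cell factor Sox2 lay between 9.58 and 10.06. The astrocyte glutamate transporter gene Slc1a3 lay between 14.96 and 15.28 and the oligodendrocyte lineage factor Olig1 between 14.63 and 15.06. The neuroblast gene Dcx was near background in primary spheres and is described with the lineage genes. Probes for the microglial genes Itgam, Cx3cr1, Ptprc and Tyrobp, the endothelial genes Pecam1, Cdh5 and Cldn5, the fibroblast genes Col1a1, Col1a2, Col3a1 and Pdgfrb and the choroid plexus gene Ttr were not above background on any array. Other markers of these types, the microglial genes Aif1 and Csf1r and the mural genes Acta2 and Rgs5, gave signal on some or all arrays and are described with their groups.

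All 6 arrays lay on 1 beadchip, the primary ones in its first 3 positions and the secondary ones in its last 3, so position and passage cannot be told apart. Median raw intensity was 150.88 to 168.44 per array and 17623 to 18699 of 45281 probes were above background. The labels call the mice gender matched, yet all 4 probes of the X-inactivation transcript Xist were above background on 4 arrays and none was on the wt primary array or Wip1-Tg primary 1. These 2 arrays also held the only signal of the Y-linked Kdm5d (6.82 and 6.32 on 1 of its 2 probes). Of the Y-linked Uty, 1 of 4 probes was dimly above background on 4 arrays, so on at least 2 of those with Xist signal. Counts are therefore given also for the 4 arrays with Xist signal, the Xist-positive arrays. There the passage difference rests on Wip1-Tg primary 2 against the Wip1-Tg secondary array, with 1 residual degree of freedom. Without the wt primary array the difference likewise comes from Wip1-Tg spheres alone, and without the Wip1-Tg secondary array from wt spheres alone.

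Passage was a broad difference. Of the 12755 features 3583 (28.1%) passed limma's moderated test at a Benjamini-Hochberg adjusted p of 0.05, with 1826 (14.3%) higher and 1757 (13.8%) lower in secondary spheres. Among the named genes 1443 rose, 1480 fell and 7244 did not pass. By fitted difference, more falls than rises were large. At least 2-fold differences were reached by 369 rises and 610 falls, at least 4-fold by 50 and 167, and at least 8-fold by 10 and 49. By detection, 148 named genes that fell were above background on no secondary array, and 38 that rose had no signal on any primary array. The filter kept such genes only through the other passage and so fixed their direction. Such genes also enter the fold counts above, with their fitted difference and not a bound. How far the excess of large falls rests on them was not tested, so all these counts are a description. A further 3885 named genes did not pass and had a 95% interval that stayed within 1.5-fold in either direction.

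**Figure D1:**
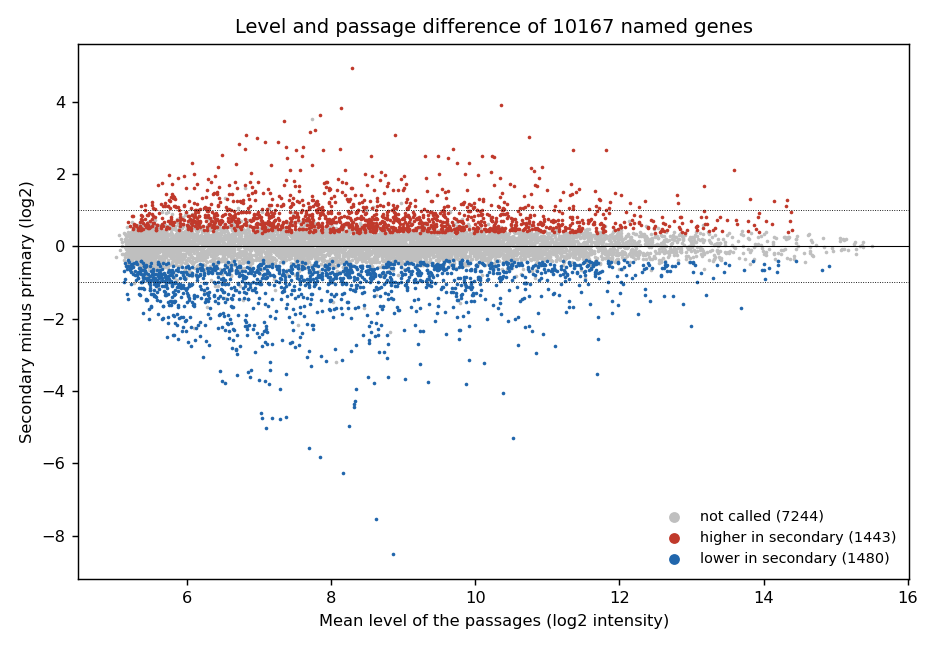
Each point is 1 of the named genes, with its mean level over both passages on the x axis (log2 intensity) and the secondary minus primary difference on the y axis (log2). Red and blue points passed the test as higher (1443) and lower (1480), dotted lines mark a 2-fold difference, and the points below 0 reach further from it than those above.

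The balance of rises and falls depends on how arrays are put on one scale. With each array scaled to its median instead of quantile normalisation, 626 features were called higher and 3235 lower, and the median over all features moved from 0.04 to -0.24. Counts on that scale are therefore given beside groups that rose more often than they fell, that went both ways or that held few calls. The count of calls was 1855 without the wt primary array, 2356 without wt secondary 1, 1363 without the Wip1-Tg secondary array and 1101 on the 4 arrays with Xist signal. For groups in which 8 or more members rose or fell, the count is also given on those 4 arrays and wherever leaving out 1 array moved it by over 1.5 times. Smaller counts were not followed in this way and rest on few genes.

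The passage difference had the same sign in wt and in Wip1-Tg spheres for each of the 3583 calls, which come from a fit that averages both genotypes and so favours a shared sign, and for 7567 (74.4%) of all named genes. Across the 10167 named genes the wt difference (1 against 2 arrays) and the Wip1-Tg difference (2 against 1) correlated with Pearson's r of 0.81 and Spearman's rho of 0.69, a description across genes, which are not independent replicates and share 1 beadchip. Among named genes that were called, the median size was 0.77 in wt and 0.81 in Wip1-Tg spheres. In limma's interaction test 0 features passed, with 1196 at an unadjusted p under 0.05 and a smallest adjusted p of 0.4891. Groups did not overlap for 3423 of the 3583 calls, beside 5969 (46.8%) of all features.

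**Figure D2:**
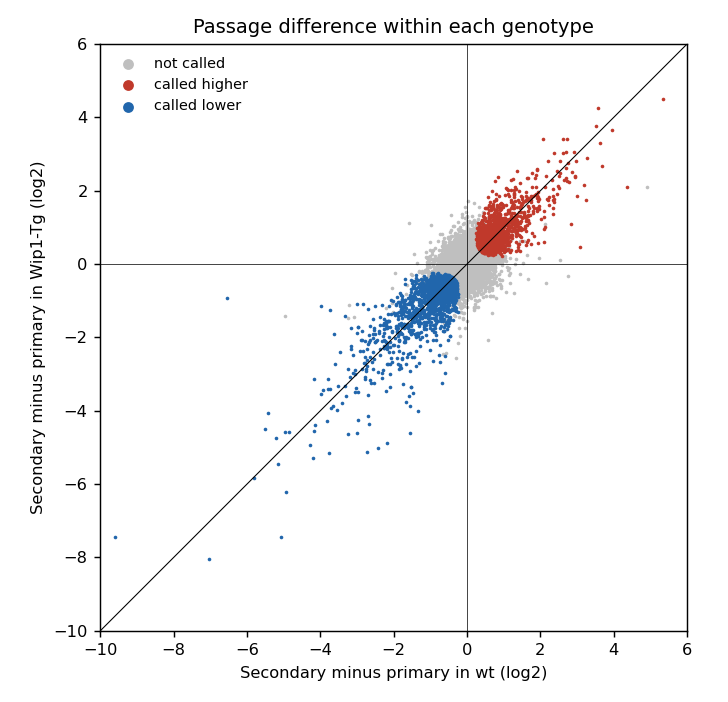
Each point is a named gene, with its secondary minus primary difference in wt spheres on the x axis and in Wip1-Tg spheres on the y axis (both log2). Red and blue points were called higher and lower, the diagonal marks equal differences, and every coloured point lies in the quadrant where both genotypes have the same sign.

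The groups of genes below are described by how many measured members rose, fell or did not pass, to be read against the 14.3% and 13.8% of all features called higher and lower. Array values are normalised log2 intensities in the order wt, Wip1-Tg 1 and Wip1-Tg 2 for primary spheres and wt 1, wt 2 and Wip1-Tg for secondary spheres. Differences are secondary minus primary on the log2 scale ± SE, with 3 arrays in each passage, and folds are the fitted ones, which allow for genotype. Where no array of a passage was above background the fold is a bound, the mean of the bright passage over the lowest signal called above background on each dim array or the probe's own, whichever is higher. Among the 153 called genes followed across alternative fits, 19 were above background on only 1 or 2 arrays of their dimmer passage. Genes above background in 1 passage only passed the filter through that passage, so the filter fixed their direction. Members with no secondary array above background numbered 4 of 37 axon guidance genes. They numbered 3 each among 30 cytokine, 31 NF-kB, 31 matricellular and 26 reactive astrocyte genes, and none of these lists had a member with no primary array above background. The same held for 2 each among 14 collagen, 15 integrin, 30 interferon-stimulated, 49 actin and 61 mitosis genes. Among 38 TGF-beta and BMP, 29 neuronal and 36 metal handling genes they numbered 2 each, with 1 each the other way. Members with no primary array above background numbered 3 of 28 astrocyte transporters, 2 of 44 astrocyte identity genes and 2 of 37 cadherins. In these bulk samples fewer cells of a type and less RNA per cell cannot be told apart.

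**Figure D3:**
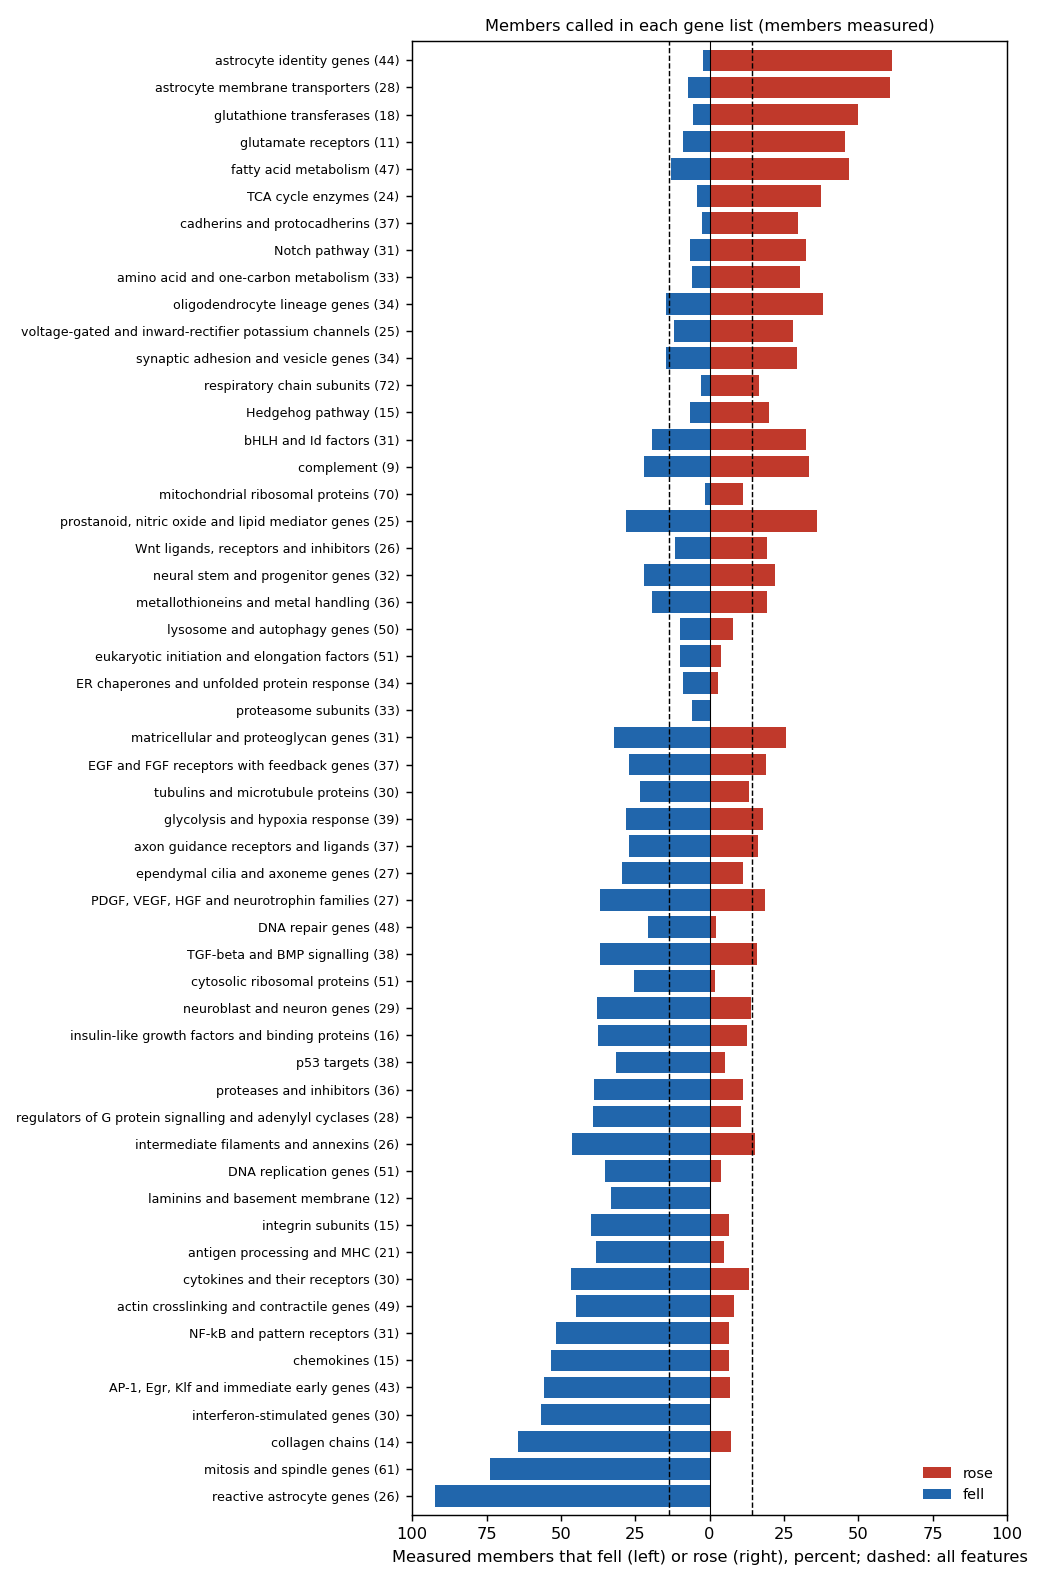
Bars give the percentage of measured members of each gene list that rose (red, right) or fell (blue, left) in secondary spheres, for lists with at least 8 measured members (number in parentheses). Dashed lines are the 14.3% and 13.8% of all features. Reactive astrocyte, mitosis and collagen genes are at the falling end and astrocyte identity genes and transporters at the rising end.

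Several genes of inflammation fell from high signal in primary spheres to none above background in secondary ones. Of 15 measured chemokines, the secreted proteins that attract leukocytes, 8 fell and 1 rose, with a median difference of -0.77, or -0.35 with one-sided members at their bound, beside 0.04 over all features. By their reported probes 6 of the 15 were above background on no secondary array. They passed the filter only through the primary arrays, where they are high. Cxcl1, which attracts neutrophils, stood at 11.78, 12.67 and 13.02 on the primary and 4.56, 4.91 and 4.79 on the secondary arrays. Ccl2, which attracts monocytes, stood at 8.77, 9.61 and 10.12 on the primary and 4.61, 4.52 and 4.58 on the secondary arrays, and Ccl7 at 9.75, 10.70 and 11.27 on the primary and 4.90, 4.74 and 4.76 on the secondary arrays. Each was above background on all primary arrays and on no secondary array, so the falls are bounds of at least 144-fold for Cxcl1, 18.1-fold for Ccl2 and 38.2-fold for Ccl7 (limma adjusted p = 0.0001212, 0.0002659 and 0.0002659). The log2 difference of Ccl7 went from -4.93 to -6.22 between the fits without the Wip1-Tg secondary and without the wt primary array. Among the other secreted genes, Ptx3, a pattern recognition protein of the pentraxin family, fell at least 41.9-fold (adjusted p = 0.0001212).

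Receptors and regulators of the NF-kB pathway, which induces many such secreted factors, also fell more often than they rose. Of 31 genes of NF-kB signalling and pattern recognition, 16 fell and 2 rose (median -0.80, or -0.60 with one-sided members at their bound). Icam1, an adhesion molecule for leukocytes, was 8.48, 8.35 and 8.46 on the primary and 5.75, 6.08 and 5.56 on the secondary arrays and so well apart between passages (-2.71 ± 0.15, adjusted p = 0.0002659). Nfkbia, the inhibitor that NF-kB induces in its own feedback, was 10.86, 10.78 and 11.40 on the primary and 8.62, 8.92 and 8.09 on the secondary arrays. It fell 5.86-fold. The bacterial lipoprotein receptor gene Tlr2 fell 10.8-fold (log2 differences of -2.70 to -4.15 without the Wip1-Tg secondary and without the wt primary array), and Bcl3, a nuclear partner of NF-kB subunits, by at least 4.76-fold. Tlr3, a receptor for double-stranded RNA, went the other way and rose by 1.03 ± 0.14.

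Of 30 cytokines and cytokine receptors 14 fell and 4 rose. Il6st, the signalling subunit shared by receptors of the interleukin-6 family, was above background on no secondary array and fell at least 3.15-fold, and the difference of the family's ligand gene Clcf1 was -1.65 ± 0.20. Il15 and Il18, cytokines that act on lymphocytes, rose by 1.47 ± 0.15 and 1.07 ± 0.13 and stood at 6.04, 6.56 and 6.53 on the primary and 7.52, 7.82 and 7.84 on the secondary arrays for Il15. Complement was mixed, with 3 of 9 members higher and 2 lower, or 3 and 4 on the median scale. C2, a component of the classical and lectin pathways, rose 14-fold and Masp1, a lectin pathway protease, 3.57-fold, whereas Serping1, the inhibitor of both pathways' first proteases, fell 5.29-fold. Chemokines that fell numbered 5 without the Wip1-Tg secondary array and 7 on the Xist-positive arrays. NF-kB and pattern genes that fell numbered 10 without the Wip1-Tg secondary array and 11 on the Xist-positive arrays. Cytokine genes that fell numbered 9 without the wt primary array, 7 without the Wip1-Tg secondary array and 8 on the Xist-positive arrays. The 3 measured microglia and macrophage markers did not pass (0 rose and 0 fell). Their mean level was 5.48 to 5.69 on primary and 5.38 to 5.48 on secondary arrays, and the defining markers Itgam, Cx3cr1, Ptprc and Tyrobp were above background on no array. Aif1, another defining marker, was dimly above background on all 3 secondary arrays (5.37, 5.42 and 5.33) and, by the reported probe, on no primary array. The Aif1 difference did not pass (0.30 ± 0.14). Csf1r, also a defining marker of this set, was above background on at least 3 arrays.

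Short stretches of the promoters of 4 of these genes are shown because each holds a motif of the kind that NF-kB binds. They are RefSeq promoters of build GRCm38.p6, written 5′ to 3′ in the sense of the gene, with each match in capitals. The motif searched was GGG and TTCC with any 3 bases between them, or its reverse complement, GGAA and CCC with any 3 bases between them. Matches that overlap are joined, and the motif was chosen after the falls were known.
Cxcl1: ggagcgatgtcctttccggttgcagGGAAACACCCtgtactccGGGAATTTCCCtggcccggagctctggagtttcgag
Cxcl2: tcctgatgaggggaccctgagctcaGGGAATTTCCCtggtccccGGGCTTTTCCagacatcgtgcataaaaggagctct
Cxcl10: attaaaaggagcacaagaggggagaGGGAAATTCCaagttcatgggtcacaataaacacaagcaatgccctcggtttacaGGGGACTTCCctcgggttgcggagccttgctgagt
Nfkbia: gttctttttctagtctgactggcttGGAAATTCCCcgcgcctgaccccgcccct
These windows lie at chr5:90891131-90891209 on the plus strand for Cxcl1, chr5:90903777-90903855 on the plus strand for Cxcl2, chr5:92348959-92349073 on the minus strand for Cxcl10 and chr12:55492648-55492701 on the minus strand for Nfkbia, all within the 250 bases before the gene's start. The match nearest to the start begins 70, 78, 104 and 29 bases before it, in the same order of genes. Cxcl2 and Cxcl10 are among the chemokines that fell. The motif stands in this window in 1434 (5.31%) of all 27025 genes with a promoter. Promoters were found for only 5 of the 8 chemokines and 11 of the 16 NF-kB genes that fell, too few for a share over these groups, so that check is void. A match is a description of the letters and not a binding site.

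Interferon-stimulated genes fell wherever they passed the test. Of 30 measured members 17 fell, 0 rose and 13 did not pass (median -1.38, or -1.33 with one-sided members at their bound). Usp18, a protease that removes Isg15 from proteins, was 7.62, 10.08 and 10.93 on the primary and 4.92, 4.85 and 5.38 on the secondary arrays. Isg15 itself, the ubiquitin-like protein induced by interferon, was 7.78, 9.70 and 10.40 on the primary and 5.55, 5.63 and 5.16 on the secondary arrays, and the antiviral gene Oasl2 7.60, 9.33 and 10.38 on the primary and 4.77, 5.57 and 4.84 on the secondary arrays. In all 3 the wt primary array was the lowest of the primary arrays and still above every secondary array. Above background in secondary spheres were Usp18 and Oasl2 on 1 array and Isg15 on 2. The falls were 15.3-fold, 11.6-fold and 13.2-fold (adjusted p = 0.00348, 0.006511 and 0.007022), and Gbp2, a guanylate-binding protein, fell 14-fold. Their sizes depended on the arrays: from the fit without the Wip1-Tg secondary array to that without the wt primary array, the log2 difference went from -2.73 to -5.13 for Usp18, -2.19 to -4.89 for Isg15, -2.43 to -5.02 for Oasl2 and -2.99 to -4.61 for Gbp2. Of 21 genes of antigen processing and the MHC 8 fell and 1 rose, among them the immunoproteasome gene Psmb8 (-2.17 ± 0.24) and the peptide transporter gene Tap1 (-1.38 ± 0.21). The gene that rose was H2-T10 (1.77 ± 0.53, or 0.45 to 3.08 as arrays were left out), for which another kept probe gave -1.27 and whose call ended without the wt primary array, without Wip1-Tg primary 1 and without either wt secondary array. Interferon-stimulated genes that fell numbered 6 without the Wip1-Tg secondary array and 20 on the Xist-positive arrays. Antigen processing genes that fell numbered 5 without wt secondary 1, 3 without the Wip1-Tg secondary array and 4 on the Xist-positive arrays.

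The promoters of 3 interferon-stimulated genes are shown for the same reason, again with matches in capitals. The motif, of the kind that interferon regulatory factors bind, was GAAA and GAAA with any 2 bases between them, or the reverse complement, TTTC and TTTC with any 2 bases between them.
Isg15: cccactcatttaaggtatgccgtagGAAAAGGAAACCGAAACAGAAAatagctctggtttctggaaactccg
Ifit3: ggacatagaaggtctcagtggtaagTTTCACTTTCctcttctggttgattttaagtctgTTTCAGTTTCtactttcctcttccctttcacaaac
Rsad2: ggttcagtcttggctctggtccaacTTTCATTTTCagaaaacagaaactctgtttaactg
The windows are chr4:156200850-156200921 on the minus strand (Isg15), chr19:34583348-34583441 on the plus strand (Ifit3) and chr12:26456538-26456597 on the minus strand (Rsad2). Promoters were found for 15 of the 17 interferon-stimulated genes that fell, and 8 of these 15 (53.3%) held the motif, where 936 of all 27025 genes (3.46%) did. The list holds interferon targets by choice, so the contrast with all genes says nothing of the passage. Only 8 of the 13 measured members that did not fall had a promoter in the table, so no share is set against this.

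Genes of mature astrocytes mostly rose and genes of reactive astrocytes mostly fell. Of 44 measured astrocyte identity genes 27 rose and 1 fell (median 0.995), and of 26 genes known from reactive astrocytes 0 rose and 24 fell (median -1.81, or -1.65 with one-sided members at their bound). Gfap, the intermediate filament that rises in injured astrocytes, is on both lists and is the identity gene that fell (-1.38 ± 0.21), a call that ended without the Wip1-Tg secondary array. Pla2g7, a phospholipase that inactivates platelet-activating factor, was 8.11, 8.37 and 7.68 on the primary and 10.67, 10.46 and 10.56 on the secondary arrays, and Aldoc, the aldolase of astrocytes, was 12.60, 12.71 and 12.21 on the primary and 14.74, 14.70 and 14.56 on the secondary arrays. They rose 5.63-fold and 4.31-fold (adjusted p = 0.000837 and 0.00066). Apoe, the lipid carrier that astrocytes secrete, was already among the bright genes and rose 2.42-fold, and Acsl6, which activates long-chain fatty acids, rose 2.61-fold. Gja1, the connexin 43 gene, rose 2.4-fold next to the 30.2-fold rise of Gjb6, the connexin 30 gene. Not all defining astrocyte markers rose. Aqp4 (0.53 ± 0.21) and Aldh1l1 (-0.15 ± 0.13) did not pass (limma adjusted p = 0.1128 and 0.406). The kept probes of Aldh1l1 lay between -0.33 and -0.15.

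Transporters of the astrocyte membrane rose in 17 of 28 members and fell in 2. No primary array was above background for 3 of the 28, nor for 2 of the 44 identity genes. The filter kept these only through the secondary arrays and so fixed their direction. The GABA transporter gene Slc6a11 was 8.47, 9.39 and 8.90 on the primary and 11.32, 11.05 and 11.42 on the secondary arrays and the glycine transporter gene Slc6a9 9.86, 10.29 and 9.90 on the primary and 12.80, 12.80 and 12.46 on the secondary arrays. These values do not overlap between passages and make rises of 5.64-fold and 6.29-fold (adjusted p = 0.0006669 and 0.0004611). Slc39a12, a zinc importer, rose 15-fold and the inward-rectifier potassium channel gene Kcnj16 2.95-fold. On the median scale 25 identity genes and 13 transporters rose and 1 and 4 fell.

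Among reactive genes, Lcn2, a siderophore-binding protein, was 14.45, 11.98 and 12.28 on the primary and 4.78, 4.94 and 4.69 on the secondary arrays, with the wt primary array highest and no secondary array above background (at least 192-fold, adjusted p = 0.0002317). Its log2 difference went from -7.44 to -9.59 between the fits without the wt primary and without the Wip1-Tg secondary array. Timp1, an inhibitor of metalloproteases, was 13.36, 12.77 and 13.10 on the primary and 7.56, 8.84 and 7.50 on the secondary arrays and fell 39.4-fold. Cd44, a hyaluronan receptor, was 11.89, 11.80 and 11.59 on the primary and 9.39, 10.03 and 9.39 on the secondary arrays and fell 4.72-fold. Serping1 and the small heat shock protein gene Hspb1 (-1.64 ± 0.17) are on the reactive list as well. Vim, which encodes the filament protein vimentin, had a smaller difference (-0.90 ± 0.15), and its call ended without the wt primary array. Mean levels over the 26 reactive genes were 9.86 to 10.13 on primary and 7.35 to 8.03 on secondary arrays, and over the 44 identity genes 9.40 to 9.67 on primary and 10.48 to 10.73 on secondary arrays, with no overlap in either. Identity genes that rose numbered 19 on the Xist-positive arrays. Transporters that rose numbered 14 on the Xist-positive arrays. Reactive genes that fell numbered 16 on the Xist-positive arrays.

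**Figure D4:**
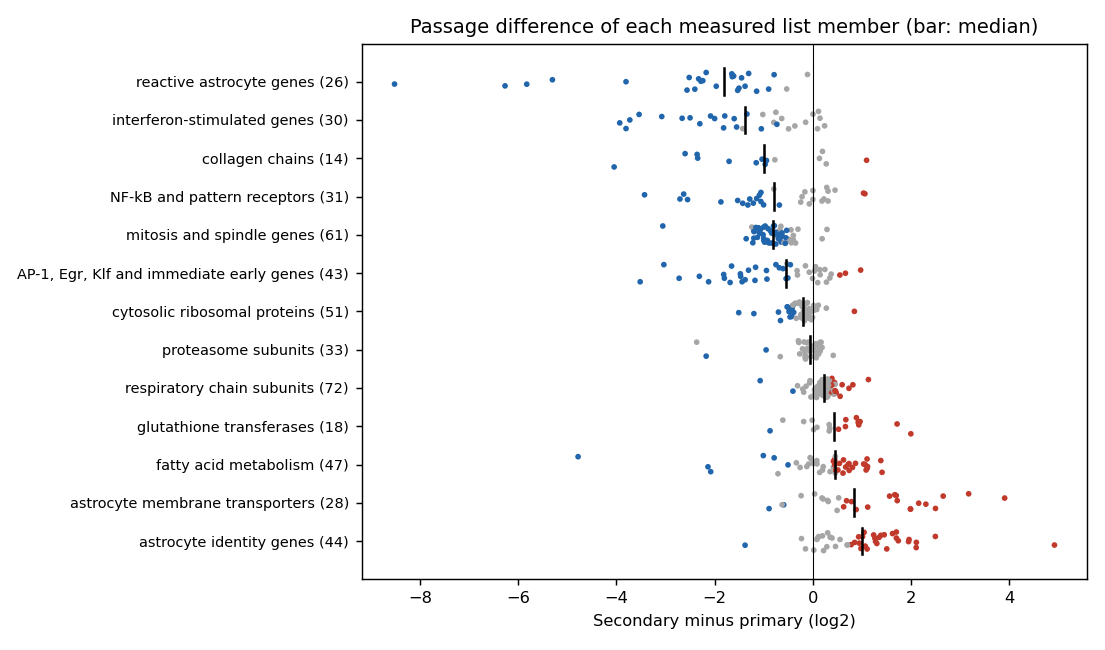
Each point is a measured member of the named list, placed at its secondary minus primary difference (log2, x axis) and coloured red if it rose, blue if it fell and grey if it did not pass. Black bars are list medians, lowest for reactive astrocyte genes (-1.81) and highest for astrocyte identity genes (0.995), with proteasome subunits close to 0.

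Collagen genes mostly fell, and other genes of the extracellular matrix and its receptors moved in both directions. Of 14 collagen chains 9 fell and 1 rose (median -1.0). Col18a1, a basement membrane collagen, was 12.50, 12.19 and 12.26 on the primary and 8.39, 8.97 and 7.95 on the secondary arrays and fell 16.5-fold (adjusted p = 0.0001958). Col5a1, a fibrillar collagen chain, fell 5.12-fold and Col4a6, of basement membranes, 6.07-fold. Col9a2 was the chain that rose (1.09 ± 0.16), a call that ended without the Wip1-Tg secondary array. Of 12 laminins and other basement membrane genes 4 fell and 0 rose, with the fibulin gene Fbln1 at -1.64 ± 0.19.

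Matricellular proteins and proteoglycans went both ways, with 10 of 31 lower and 8 higher, a balance that became 15 and 5 on the median scale. Thbs2, a thrombospondin, was 10.25, 8.98 and 9.25 on the primary and 4.61, 4.86 and 4.61 on the secondary arrays, with no secondary array above background (at least 18.1-fold). Tnc, the tenascin of germinal zones and of injured tissue, was 12.34, 12.37 and 12.86 on the primary and 9.55, 9.55 and 9.93 on the secondary arrays and fell 6.69-fold, its 6 kept probes lying between -2.88 and -0.83. Among those that rose were genes of brain proteoglycans. Gpc5, a glypican, was 7.10, 6.43 and 6.57 on the primary and 9.70, 9.61 and 9.31 on the secondary arrays and rose 6.41-fold, Sparcl1, a synapse-promoting protein of astrocytes, rose 3.36-fold and Bcan, the proteoglycan brevican, 2.77-fold. Proteases and their inhibitors fell more often than they rose, with 14 of 36 lower and 4 higher. Within this family Timp4 rose 5.68-fold while Timp1 fell, and Loxl1, a collagen and elastin crosslinking enzyme, fell 3.61-fold.

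Integrins, the receptors for this matrix, fell in 6 of 15 cases and rose in 1. Itga7, a laminin receptor chain, was 9.89, 9.90 and 9.77 on the primary and 7.25, 7.42 and 7.43 on the secondary arrays, and Itga5, the fibronectin receptor chain, was 7.76, 7.77 and 7.65 on the primary and 5.82, 6.09 and 4.86 on the secondary arrays. They fell 5.59-fold and 5.02-fold, and Itgb5 rose 2.18-fold. Matricellular genes that rose numbered 3 on the Xist-positive arrays. Collagen chains that fell numbered 6 on the Xist-positive arrays. Matricellular genes that fell numbered 5 without the wt primary array, 5 without the Wip1-Tg secondary array and 7 on the Xist-positive arrays. Proteases and inhibitors that fell numbered 5 without the Wip1-Tg secondary array and 8 on the Xist-positive arrays. Of 5 measured endothelial markers 3 fell and 0 rose, and of 6 fibroblast and mural markers 3 fell and 0 rose. Plvap, a protein of endothelial fenestrae, fell 4.56-fold and the mesenchymal factor Prrx1 2.74-fold. Mean levels of the endothelial markers were 8.74 to 9.12 on primary and 7.74 to 8.23 on secondary arrays, and of the fibroblast and mural markers 8.30 to 8.48 on primary and 7.37 to 7.62 on secondary arrays. The part of these cell types in the matrix result was not tested. Their defining markers Pecam1, Cdh5, Cldn5, Col1a1, Col1a2, Col3a1 and Pdgfrb were above background on no array. Acta2, another defining marker of fibroblasts and mural cells, was above background on all 6 arrays and did not pass (-0.39 ± 0.62). It was 8.63, 8.05 and 8.76 on the primary and 8.73, 6.50 and 8.63 on the secondary arrays. Rgs5, also of this set, was above background on 2 arrays.

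Genes of the cytoskeleton that couples to such adhesions also fell more often than they rose. Of 49 actin crosslinking and contractile genes 22 fell and 4 rose. Csrp1, a LIM protein of actin bundles, was 11.43, 10.20 and 10.07 on the primary and 6.06, 6.39 and 5.39 on the secondary arrays, and Flnc, a filamin, was 9.78, 8.77 and 8.47 on the primary and 6.43, 6.88 and 5.65 on the secondary arrays. Tagln2, a transgelin, was 12.999, 12.83 and 13.06 on the primary and 10.44, 10.51 and 10.35 on the secondary arrays. They fell 31.3-fold, 8.26-fold and 5.89-fold, and Fblim1, which links filamin to adhesions, fell 12.8-fold. Mylk, the kinase of the myosin light chain, went the other way and rose 6.64-fold (log2 differences of 2.06 to 3.40 without the Wip1-Tg secondary and without the wt primary array). Of 26 intermediate filaments, annexins and S100 proteins 12 fell and 4 rose. Anxa2 was 13.36, 13.04 and 13.03 on the primary and 11.30, 11.60 and 11.19 on the secondary arrays and its partner S100a10 9.76, 9.61 and 10.03 on the primary and 7.14, 7.87 and 7.52 on the secondary arrays, falls of 3.67-fold and 4.86-fold. Anxa6 fell 4.64-fold. S100b, the S100 protein of astrocytes, rose at least 2.15-fold. Of 30 tubulin and microtubule genes 7 fell and 4 rose, or 14 and 3 on the median scale. Tubb6 was 12.72, 12.69 and 12.66 on the primary and 10.66, 10.68 and 10.82 on the secondary arrays, a fall of 3.88-fold. Actin genes that fell numbered 10 on the Xist-positive arrays. Filament, annexin and S100 genes that fell numbered 8 on the Xist-positive arrays.

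Immediate early and stress response genes fell far more often than they rose. Of 43 genes of the AP-1, Egr, Klf and related families 24 fell and 3 rose (median -0.55, or -0.53 with one-sided members at their bound). Ier3, an immediate early survival gene, was 13.24, 13.29 and 13.43 on the primary and 10.12, 11.02 and 9.001 on the secondary arrays. Junb, an AP-1 subunit, was 10.28, 9.95 and 10.01 on the primary and 7.75, 8.68 and 7.42 on the secondary arrays, and Gadd45b, a stress sensor, 9.39, 9.06 and 9.70 on the primary and 5.95, 6.70 and 6.37 on the secondary arrays. The secondary arrays spread more widely for Ier3 and Junb than the primary ones but did not reach them, and the falls were 11.4-fold, 4.96-fold and 8.19-fold. The other kept probe of Gadd45b gave -0.82. For Ier3 the log2 difference went from -2.67 to -4.36 between the fits without the Wip1-Tg secondary and without the wt primary array. Gadd45a, which p53 also induces, fell 3.52-fold. Of 38 p53 targets 12 fell and 2 rose. Fas, the death receptor, fell 2.71-fold and Phlda3, an inhibitor of Akt, 2.41-fold. AP-1 and related genes that fell numbered 14 without the wt primary array, 15 without the Wip1-Tg secondary array and 10 on the Xist-positive arrays. P53 targets that fell numbered 7 without the Wip1-Tg secondary array and 6 on the Xist-positive arrays.

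Genes of cell division fell together by modest amounts. Of 61 mitosis and spindle genes 45 fell, 0 rose and 16 did not pass (median -0.80), and of 51 DNA replication genes 18 fell and 2 rose (median -0.39). Cenpa, the histone that marks centromeres, was 12.21, 12.61 and 12.72 on the primary and 11.11, 10.85 and 11.44 on the secondary arrays and fell 2.33-fold (adjusted p = 0.001493). Cdc20, an activator of the anaphase-promoting complex, was 10.78, 11.29 and 11.44 on the primary and 9.78, 9.31 and 10.20 on the secondary arrays, and Cdca3, which triggers entry into mitosis, was 10.44, 10.80 and 10.95 on the primary and 9.28, 8.69 and 9.61 on the secondary arrays, falls of 2.3-fold and 2.56-fold. Cdkn3, a phosphatase of cyclin-dependent kinases that peaks with division, fell 2.46-fold. In each of these 4 genes wt secondary 2 was the lowest array and Wip1-Tg primary 2 the highest. Mean levels over the mitosis list, at 8.22, 8.55 and 8.67 on the primary and 7.50, 7.06 and 7.89 on the secondary arrays, were lowest and highest on the same arrays. The calls of Cdc20, Cdca3 and Cdkn3 ended on the Xist-positive arrays. Cenpq, a kinetochore subunit, stood apart from the list with a fall of at least 5.21-fold. The median of the mitosis list was -0.75 without the wt primary array, -0.95 without the Wip1-Tg secondary array and -0.79 on the Xist-positive arrays. DNA repair genes were closer to all features, with 10 of 48 lower and 1 higher. Mitosis genes that fell numbered 15 without the wt primary array, 16 without the Wip1-Tg secondary array and 3 on the Xist-positive arrays. Replication genes that fell numbered 1 to 11 when the wt primary array, Wip1-Tg primary 2, wt secondary 2 or the Wip1-Tg secondary array was left out, the lowest without the Wip1-Tg secondary array, and 1 on the Xist-positive arrays. Repair genes that fell numbered 0 to 6 whichever array was left out, the lowest without the Wip1-Tg secondary array, and 1 on the Xist-positive arrays.

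Housekeeping families other than cytosolic ribosomal proteins held few calls beside the 28.1% of all features, but under median scaling most of them held more falls. Of 33 proteasome subunits 2 fell, the interferon-inducible Psmb8 and Psmb9, against 9 on the median scale. Of 51 translation initiation and elongation factors 2 rose and 5 fell (0 and 15 on the median scale). Endoplasmic reticulum chaperones and unfolded protein genes had 1 of 34 higher and 3 lower (0 and 10), lysosome and autophagy genes 4 of 50 and 5 (3 and 14) and mitochondrial ribosomal proteins 8 of 70 and 1 (1 and 11). Lysosomal peptidase genes went both ways. Ctsf rose 2.14-fold, a call that ended without the Wip1-Tg secondary array. Ctsh was 10.20, 9.81 and 10.13 on the primary and 7.32, 7.83 and 6.72 on the secondary arrays and fell 7.64-fold, and Ctsc fell at least 16.9-fold by the reported probe, its least changed probe giving -2.10. Cytosolic ribosomal proteins leaned down, with 13 of 51 lower and 1 higher (median -0.19). The purine salvage gene Hprt, often used as a reference, was 10.43, 10.51 and 10.58 on the primary and 9.07, 8.84 and 9.06 on the secondary arrays and fell 2.79-fold. It had the largest fall among 13 measured reference genes, of which 3 fell, 1 rose and 9 did not pass (median -0.18). Cytosolic ribosomal proteins that fell numbered 2 to 7 whichever array was left out, the lowest without the wt primary array, and 0 on the Xist-positive arrays. Mitochondrial ribosomal proteins that rose numbered 1 to 4 when the wt primary array, Wip1-Tg primary 1, Wip1-Tg primary 2, wt secondary 1 or the Wip1-Tg secondary array was left out, the lowest without the wt primary array, and 0 on the Xist-positive arrays.

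Genes of several metabolic pathways rose more often than they fell, a balance that was lost on the median scale for fatty acid and TCA cycle genes. Of 47 genes of fatty acid metabolism 22 rose and 6 fell (median 0.45), of 24 enzymes of the TCA cycle and its inputs 9 and 1, and of 33 genes of amino acid and one-carbon metabolism 10 and 2. Ppargc1a, a coactivator of mitochondrial genes, was 7.57, 7.78 and 7.49 on the primary and 9.23, 8.97 and 8.93 on the secondary arrays and rose 2.65-fold (adjusted p = 0.001601). Acsbg1, an acyl-CoA synthetase of brain, rose 2.15-fold, the transaminase gene Gpt2 2.67-fold and Glul, the glutamine synthetase of astrocytes, 3.25-fold. Aldh5a1, which oxidises succinic semialdehyde from GABA, rose 2.1-fold. Against this direction Me1, the cytosolic malic enzyme, was 9.99, 9.15 and 9.73 on the primary and 4.92, 5.12 and 4.84 on the secondary arrays, at least 19.7-fold lower, and Ass1, the argininosuccinate synthase, was 9.28, 9.09 and 8.44 on the primary and 5.46, 5.70 and 4.84 on the secondary arrays, a fall of 14.1-fold. Lpl, which releases fatty acids from lipoproteins, fell 4.39-fold. On the median scale the rises numbered 8 for fatty acid genes, 1 for the TCA cycle and 8 for amino acid genes, and the falls 9, 1 and 5, with a median of -0.06 for the amino acid genes.

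Of 18 glutathione transferases, which conjugate electrophiles, 9 rose and 1 fell (median 0.43). Gstt1 was 9.53, 9.80 and 9.62 on the primary and 11.38, 11.17 and 11.39 on the secondary arrays and rose 3.28-fold, and Gstt3 rose 3.98-fold, while Gsto1 of the omega class fell 1.83-fold. On the median scale 6 rose and 2 fell. The respiratory chain had 12 of 72 subunits higher and 2 lower, which became 1 and 4 on the median scale, where the list median was -0.08 instead of 0.23. Glycolysis and hypoxia genes went both ways, with 11 of 39 lower and 7 higher, or 20 and 4 on the median scale. Ndrg1, a hypoxia-induced gene, was 8.77, 9.11 and 8.73 on the primary and 6.19, 6.70 and 5.81 on the secondary arrays and fell 6.59-fold, while Aldoc rose. Respiratory chain genes that rose numbered 1 to 6 whichever array was left out, the lowest without the Wip1-Tg secondary array, and 1 on the Xist-positive arrays. Glycolysis and hypoxia genes that fell numbered 1 to 7 when Wip1-Tg primary 1, wt secondary 1 or the Wip1-Tg secondary array was left out, the lowest without the Wip1-Tg secondary array, and 5 on the Xist-positive arrays. Fatty acid genes that rose numbered 9 to 14 when the wt primary array, wt secondary 1 or the Wip1-Tg secondary array was left out, the lowest without the Wip1-Tg secondary array, and 6 on the Xist-positive arrays. TCA cycle genes that rose numbered 1 to 5 when the wt primary array, Wip1-Tg primary 1, wt secondary 1 or the Wip1-Tg secondary array was left out, the lowest without the Wip1-Tg secondary array, and 2 on the Xist-positive arrays. Amino acid genes that rose numbered 4 without the Wip1-Tg secondary array and 7 on the Xist-positive arrays. Glutathione transferases that rose numbered 5 without the wt primary array, 4 without the Wip1-Tg secondary array and 4 on the Xist-positive arrays.

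Iron and zinc handling changed by gene. Of 36 genes of metal handling 7 rose and 7 fell, or 4 and 11 on the median scale. Heph, a ferroxidase of iron export, was 6.06, 6.18 and 6.01 on the primary and 7.996, 8.04 and 7.67 on the secondary arrays and rose 3.4-fold, while Cybrd1, a ferric reductase, fell 3.35-fold and Trf, the iron carrier transferrin, fell 13.5-fold. Mt3, the metallothionein of brain, rose 2.47-fold. 

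Glutamate receptors and potassium channels rose more often than they fell. Of 11 glutamate receptor genes 5 rose and 1 fell, and of 4 GABA and glycine receptor genes 2 rose and 0 fell, or 1 and 0 on the median scale. Gabrb1, a GABA-A receptor subunit, was 9.22, 9.18 and 8.90 on the primary and 10.67, 10.60 and 10.74 on the secondary arrays and rose 2.94-fold. Gria2, the AMPA receptor subunit that limits calcium entry, was 9.37, 9.27 and 9.69 on the primary and 11.26, 10.76 and 11.22 on the secondary arrays and rose 3.24-fold, and the NMDA receptor gene Grin3a rose 3.73-fold. Grm4, a presynaptic metabotropic receptor, fell at least 2.97-fold. Potassium channels rose in 7 of 25 cases and fell in 3. Kcnk1, a leak channel, was 9.93, 10.22 and 9.69 on the primary and 11.89, 11.83 and 11.78 on the secondary arrays, and Kcnn2, a calcium-activated channel above background on 1 primary array, was 5.43, 5.25 and 5.11 on the primary and 6.81, 7.10 and 6.88 on the secondary arrays, rises of 3.67-fold and 3.06-fold. The calcium channel gamma subunit gene Cacng5 fell 9.4-fold, its kept probes lying between -3.23 and -1.64. On the median scale 3 glutamate receptors and 6 potassium channels rose and 1 and 5 fell. 

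Second messenger genes leaned down, with 11 of 28 regulators of G protein signalling, adenylyl cyclases and phosphodiesterases lower and 3 higher. Rgs16 was 11.53, 11.48 and 11.70 on the primary and 9.61, 9.76 and 9.52 on the secondary arrays and fell 3.89-fold, and Adcy8, a calcium-stimulated cyclase, was 5.96, 5.66 and 5.81 on the primary and 8.67, 8.66 and 8.80 on the secondary arrays and rose 7.39-fold. Lipid mediator genes were split, with 9 of 25 higher and 7 lower, or 4 and 7 on the median scale. The lysophosphatidic acid receptor genes moved in opposite directions, Lpar4 up 4.11-fold and Lpar1 down 3.77-fold, and the sphingosine phosphate receptor gene S1pr2 fell 3.22-fold. G protein regulators and cyclases that fell numbered 7 without the Wip1-Tg secondary array and 7 on the Xist-positive arrays. Lipid mediator genes that rose numbered 3 without the Wip1-Tg secondary array and 2 on the Xist-positive arrays.

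Cadherins rose more often than they fell. Of 37 cadherins and protocadherins, which bind cell to cell, 11 rose and 1 fell, and 5 and 4 did so on the median scale. Pcdh17 was 9.06, 9.30 and 8.87 on the primary and 10.26, 10.04 and 10.22 on the secondary arrays and rose 2.16-fold, and Cdh2, the N-cadherin gene, rose at least 1.77-fold by the reported probe, its other kept probe giving 0.30. Synaptic adhesion and vesicle genes had 10 of 34 members higher and 5 lower, or 5 and 7 on the median scale, with Sez6l up 7.89-fold and its relative Sez6 down 2.08-fold. Axon guidance genes had 10 of 37 lower and 6 higher, or 17 and 3 on the median scale. Unc5b, a netrin receptor, was 9.89, 9.09 and 8.63 on the primary and 6.08, 7.07 and 5.54 on the secondary arrays and fell 9.99-fold, Sema7a, a membrane-anchored semaphorin, fell 5.6-fold and Plxnd1, a semaphorin receptor, 3.76-fold, while Sema6d rose 2.04-fold. Cadherins that rose numbered 7 when the wt primary array, Wip1-Tg primary 1, Wip1-Tg primary 2, wt secondary 1 or the Wip1-Tg secondary array was left out and 4 on the Xist-positive arrays. Synaptic genes that rose numbered 3 to 5 when the wt primary array, wt secondary 1 or the Wip1-Tg secondary array was left out, the lowest without the Wip1-Tg secondary array, and 2 on the Xist-positive arrays. Axon guidance genes that fell numbered 7 on the Xist-positive arrays.

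Of the developmental signalling pathways, TGF-beta and BMP genes fell more often and Notch genes rose more often, while Hedgehog genes held few calls. TGF-beta and BMP genes fell in 14 of 38 cases and rose in 6, or 19 and 4 on the median scale. The latent TGF-beta binding protein gene Ltbp1 fell 4.97-fold by the reported probe, the other kept probe giving -0.21, and Fst, an activin antagonist, at least 2.04-fold, while the BMP receptor gene Bmpr1b rose 2.02-fold. Notch genes rose in 10 of 31 cases and fell in 2, or 5 and 3 on the median scale. Hes5, a Notch target, was 6.85, 7.92 and 7.98 on the primary and 9.16, 8.57 and 9.18 on the secondary arrays, the wt primary array lowest, and rose 3.08-fold. Lfng, a glycosyltransferase of Notch receptors, rose 2.13-fold, and Dlk1, a non-canonical ligand, fell 3.02-fold. In the Hedgehog list 3 of 15 rose and 1 fell, or 2 and 4 on the median scale, so no direction is read from it. Ptch1, the receptor and target gene of the pathway, was 7.82, 7.84 and 7.87 on the primary and 8.88, 9.04 and 9.26 on the secondary arrays, and the transcription factor Gli2 7.16, 7.19 and 6.86 on the primary and 8.49, 8.40 and 8.30 on the secondary arrays, both separate between passages, each a rise of 2.42-fold. TGF-beta and BMP genes that fell numbered 4 to 9 when the wt primary array, Wip1-Tg primary 2 or the Wip1-Tg secondary array was left out, the lowest without the Wip1-Tg secondary array, and 4 on the Xist-positive arrays. Notch genes that rose numbered 4 to 6 when the wt primary array, Wip1-Tg primary 1, Wip1-Tg primary 2, wt secondary 1 or the Wip1-Tg secondary array was left out, the lowest without the wt primary array and without the Wip1-Tg secondary array, and 2 on the Xist-positive arrays.

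Wnt ligands, receptors and inhibitors had 5 of 26 members higher and 3 lower, or 3 and 5 on the median scale. These shares (19.2% and 11.5%) were near those of all features. The related ligand genes went apart, Wnt5a up 2.38-fold and Wnt5b down 2.01-fold, and the Dickkopf family gene Dkk3 fell 8.82-fold. Receptors and feedback genes of EGF and FGF had 7 of 37 higher and 10 lower, or 2 and 12 on the median scale. Fgf12, an intracellular FGF homologue, rose 4.75-fold, and the ERK phosphatase gene Dusp4 fell 2.75-fold. The EGF receptor ligand gene Hbegf fell 2.46-fold by the reported probe, the other kept probe giving 0.14. EGF and FGF genes that fell numbered 2 to 6 when the wt primary array, Wip1-Tg primary 1 or the Wip1-Tg secondary array was left out, the lowest without the wt primary array, and 2 on the Xist-positive arrays.

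Angiogenic and growth factor genes of other families fell more often than they rose. Of 27 PDGF, VEGF, HGF and neurotrophin genes 10 fell and 5 rose, or 14 and 2 on the median scale. Angpt2, a vessel-destabilising factor, was 12.27, 12.38 and 12.24 on the primary and 9.28, 9.66 and 9.19 on the secondary arrays and fell 7.79-fold, and Pdgfa, the ligand of oligodendrocyte progenitors, fell 3.04-fold. Mertk, a receptor by which astrocytes engulf debris, rose 2.08-fold. Of 16 insulin-like growth factor and stanniocalcin genes 6 fell and 2 rose. Stc1, a stanniocalcin, was 9.02, 8.86 and 8.77 on the primary and 6.65, 6.46 and 6.73 on the secondary arrays, and the binding protein gene Igfbp7 8.98, 8.12 and 8.47 on the primary and 6.74, 6.80 and 6.63 on the secondary arrays, falls of 4.84-fold and 3.83-fold, and Igfbp3 fell 2.55-fold. PDGF and related genes that fell numbered 6 without the Wip1-Tg secondary array and 3 on the Xist-positive arrays.

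Basic helix-loop-helix factors and their Id antagonists had 10 of 31 higher and 6 lower, or 6 and 6 on the median scale. Mycl, the L-Myc gene, was 7.90, 8.08 and 8.22 on the primary and 10.06, 9.67 and 9.92 on the secondary arrays and rose 3.64-fold. BHLH and Id factors that rose numbered 6 without the Wip1-Tg secondary array and 2 on the Xist-positive arrays. Cntn1, a neural adhesion molecule that also binds Notch, was 9.57, 9.57 and 9.99 on the primary and 11.44, 11.32 and 11.30 on the secondary arrays and rose 3.18-fold. Sox7, a Sox factor of endothelium, was 9.999, 9.43 and 9.61 on the primary and 5.08, 5.19 and 4.94 on the secondary arrays by the reported probe, at least 20.5-fold lower, while another of its 3 kept probes gave 0.08.

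Lineage genes other than those of astrocytes moved in both directions. Neural stem and progenitor genes had 7 of 32 higher and 7 lower, or 4 and 9 on the median scale. Oligodendrocyte lineage genes had 13 of 34 higher and 5 lower, or 10 and 9 on the median scale. Omg, the oligodendrocyte myelin glycoprotein gene, was 9.69, 9.84 and 9.97 on the primary and 12.22, 11.88 and 11.94 on the secondary arrays and rose 4.58-fold, and Enpp6, an early marker of newly forming oligodendrocytes, was 5.84, 4.78 and 6.01 on the primary and 9.06, 8.57 and 8.20 on the secondary arrays and rose 7.39-fold. Sox10 and Pdgfra, defining markers of this lineage, went the other way and fell 2.05-fold and 1.94-fold. Their calls were not followed across the alternative fits. The largest change on the list was the fall of Trf (13.5-fold), described with iron handling. Neuroblast and neuron genes had 11 of 29 lower and 4 higher. Gap43, a protein of growing axons, was 10.98, 10.40 and 11.07 on the primary and 8.40, 8.17 and 8.56 on the secondary arrays and fell 5.41-fold, and Pvalb, a calcium-binding protein of interneurons, fell 5.44-fold. Nefm, a neurofilament subunit, fell 4.48-fold, whereas Dcx, a microtubule protein of neuroblasts, rose at least 2.36-fold by the reported probe, which was above background on no primary array. Ependymal cilia genes had 8 of 27 lower and 3 higher, with Ccno, a cyclin-like protein needed for multiciliated cells, at -1.52 ± 0.14. Oligodendrocyte lineage genes that rose numbered 6 without the wt primary array, 4 without the Wip1-Tg secondary array and 3 on the Xist-positive arrays. Neuronal genes that fell numbered 5 without the wt primary array, 7 without Wip1-Tg primary 1 and 6 on the Xist-positive arrays. Ependymal genes that fell numbered 2 to 5 when the wt primary array, Wip1-Tg primary 1, wt secondary 1 or the Wip1-Tg secondary array was left out, the lowest without the wt primary array, and 2 on the Xist-positive arrays.

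**Figure D5:**
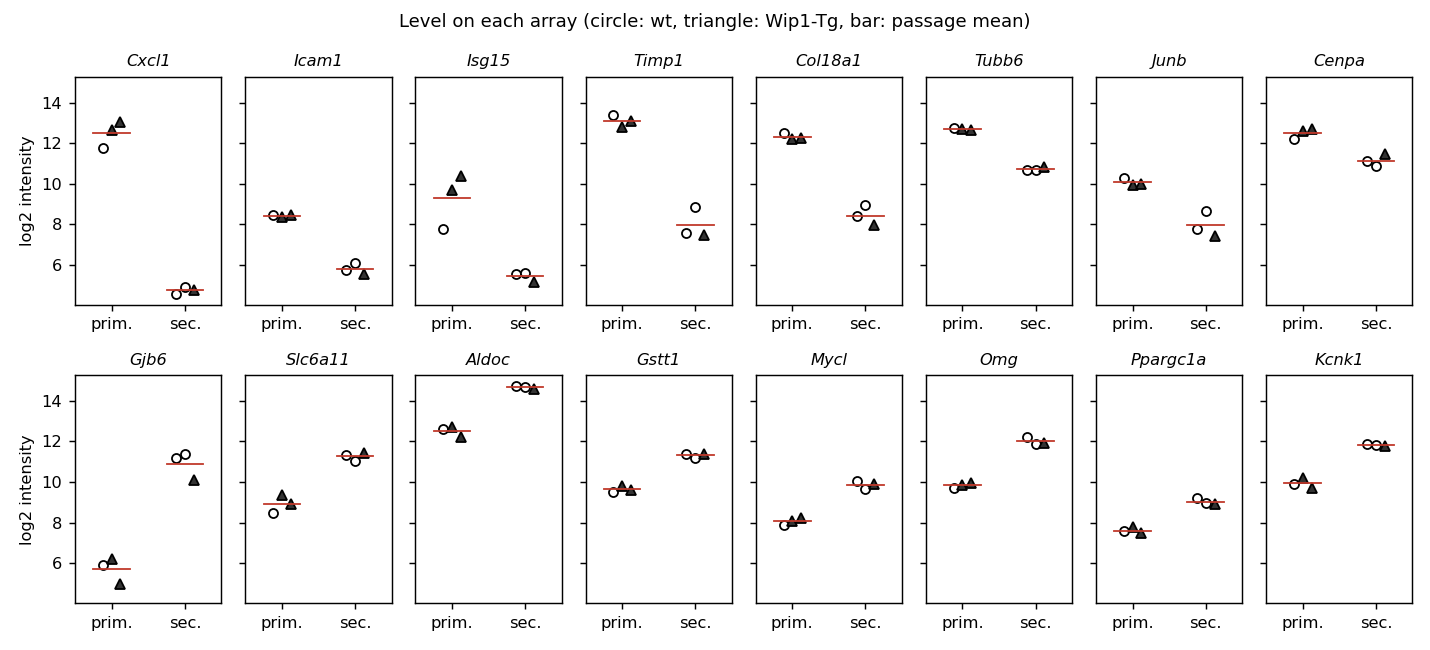
Normalised log2 intensity (y axis) on each array for 16 of the genes described, for primary (prim.) and secondary (sec.) spheres. Circles are wt, triangles are Wip1-Tg and red bars are passage means over 3 arrays. In every panel all primary arrays lie on one side of all secondary arrays.

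Some of the largest rises belong to none of these pathways. Hsd11b1, which regenerates active glucocorticoid from its inactive form, was 5.53, 5.66 and 5.61 on the primary and 9.27, 9.06 and 8.92 on the secondary arrays and rose 11-fold, its 3 kept probes lying between 3.40 and 3.55 (adjusted p = 0.0001314). Abhd3, a phospholipase, was 7.39, 7.38 and 7.11 on the primary and 10.74, 10.58 and 10.15 on the secondary arrays and rose 8.47-fold, and Tmem100, a membrane protein, was 5.86, 6.15 and 6.14 on the primary and 8.87, 8.33 and 8.90 on the secondary arrays and rose 6.73-fold. Among such falls Tnfaip2, a gene induced by TNF, was 10.43, 10.24 and 10.77 on the primary and 5.87, 6.65 and 5.94 on the secondary arrays and fell 20.6-fold, and Aldh1a3, which makes retinoic acid, was 10.53, 9.91 and 10.80 on the primary and 6.24, 6.52 and 5.96 on the secondary arrays and fell 19.3-fold, its other kept probe giving -2.20. Scara3, a scavenger receptor of oxidative stress, was 10.71, 10.22 and 10.08 on the primary and 6.26, 7.64 and 4.997 on the secondary arrays, the secondary arrays spreading widely below the primary ones, and fell 21.9-fold. Its log2 difference went from -3.76 to -5.15 between the fits without the Wip1-Tg secondary and without the wt primary array.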

How the data were processed

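RNA of 6 neurosphere samples was hybridised to 1 Illumina mouse whole-genome beadchip. The main values were the deposited linear bead intensities, which per the file headers come with a detection p-value per probe and array. The authors also deposited a table of intensity values that share quartiles across arrays and so are quantile normalised, and it served as an alternative. Scanner software is not given in the sources used here. Probe names came from the platform annotation: 34885 of 45281 probes had 1 symbol, 18 several and 10378 none. The number of arrays limits the precision.

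Background was corrected by normexp with an offset of 16 and arrays were quantile normalised (neqc) in limma 3.58.1 under R 4.3.3, with negative controls inferred from the detection p-values. Probes with a detection p-value under 0.05 on at least 3 arrays were kept, 18274 in all. For the 3849 genes with several kept probes the one with the highest mean level over all arrays was reported, and of 1151 such genes that were called 162 had kept probes of both signs. Passage was tested with genotype as a covariate by lmFit and eBayes over all 12755 features, with Benjamini-Hochberg adjustment. The code was tested on simulated data.

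The gene lists and the groups they form were chosen with earlier results of these data known. From each list up to 4 members that rose and 4 that fell could be named, being the largest called differences of the same sign in both genotypes, together with the 15 largest rises and falls and the cell type markers. Those given were mostly chosen among them for calls that held as each array was left out.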

Additional observations from a re-analysis of the deposited data

How the results depend on the processing

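The count of features called was 1363 to 3034 as each array was left out, with 606 to 1488 higher and 757 to 1546 lower, and every one of the 3583 calls kept its sign in these fits. On the 4 arrays with Xist signal 1101 features were called, 494 higher and 607 lower. Without moderation of the variances 918 were called, 492 higher and 426 lower. Median scaling gave 626 higher and 3235 lower. The interaction count of 0 became 6 with the authors' table and without background correction, 9 with median scaling and with a trended robust fit, and 1 with all probes and with an offset of 50. The causes of these differences between settings were not tested. Counts with a stricter detection limit, with all 6 arrays above background, with the mean over probes, with array weights or without the genotype term were within 1.5 times those reported. With all 6 arrays required 1 of 2948 calls changed its sign, and with the mean over probes 9 of 3583 did. In every other alternative all calls kept their sign. None of those that changed was among the 153 genes followed, and with the mean over probes H2-T10 stood at 0.12 in place of 1.77. Of all 3583 calls 1626 held without the wt primary array and 1259 without the Wip1-Tg secondary array. The 153 called genes followed across these alternatives were mostly chosen for holding as each array was left out, which Gfap, Vim, Col9a2, Ctsf and H2-T10 did not. Without moderation 60 of them lost their call, and 16 lost it on the 4 arrays with Xist signal, namely Bmpr1b, Cdc20, Cdca3, Cdkn3, Dcx, Dlk1, Gsto1, H2-T10, Hes5, Lfng, Ltbp1, Phlda3, Sema6d, Sez6, Vim and Wnt5b. No paired analysis was possible because replicate numbers above 1 exist only for Wip1-Tg primary and wt secondary spheres, which differ in both genotype and passage. Probes near background set only bounds.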
